A study of Arabidopsis thaliana with 6 samples.

Results

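Salicylate and jasmonate defence marker genes are transcripts used to read the activity of a pair of plant immune hormone pathways. In Arabidopsis thaliana seedlings 5 genes placed under that name were examined: GRX480, SAG101, PDF1.2, PDF1.2b and THI2.1. Members were the probe sets annotated to exactly one of these genes, which gave 5 probe sets, 1 per gene, of 22746 on the array without controls and 13513 with exactly 1 gene named. The seedlings were 10 days old and had been raised in continuous light on sucrose-containing agar. Affymetrix arrays were hybridised with RNA of whole seedlings in 3 groups of 2 biological replicates: wild type, plants overexpressing the rice cDNA OsTOP6A3 and plants overexpressing the rice cDNA OsTOP6B. These cDNAs encode the A and B kinds of subunit of topoisomerase VI, which cuts both strands of a DNA helix, lets another helix through and reseals the cut. The ecotype is Columbia on 5 arrays and is not stated for wild-type replicate 1. The array names give a single designation for each overexpressor, OEA3L5 and OETOP6B, so subunit and transgenic line cannot be told apart. The promoter driving the cDNAs is not given in the sources used here, and no vector-only group was analysed.

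Salicylate accumulates after attack by pathogens that feed on living tissue and acts through the coactivator NPR1 and TGA transcription factors. Jasmonate, made after wounding or attack by tissue-killing fungi, releases MYC transcription factors from JAZ repressors. The pathways often oppose each other. GRX480, also named ROXY19, encodes a glutaredoxin of the plant-specific CC type that is induced by salicylate, binds TGA factors and, when expressed ectopically, dampens jasmonate induction of PDF1.2. SAG101 encodes a lipase-like protein that partners with the immune regulator EDS1. PDF1.2 and PDF1.2b encode near-identical antifungal defensins induced by jasmonate together with ethylene, and THI2.1 encodes a jasmonate-inducible thionin, another small antimicrobial peptide.

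Median intensities of the arrays ran from 66.2 to 103.5 as deposited, so values were compared after quantile normalization, as log2(intensity + 16), where an intensity of 0 reads 4. Replicate arrays correlated at 0.983 to 0.991 over tested probe sets, which are not independent replicates. OsTOP6B replicate 1 correlated more with both OsTOP6A3 arrays, at 0.989, than with OsTOP6B replicate 2, at 0.983. Of 8 listed root markers 3 had a tested probe set of exactly 1 gene. Their summed normalized levels were 6318 and 6738 in wild type, 7136 and 7590 with OsTOP6A3, and 8126 and 6910 with OsTOP6B. Of 12 listed shoot markers 6 had one. Their levels summed to 32462 and 32793 in wild type, 30208 and 30510 with OsTOP6A3, and 27808 and 31107 with OsTOP6B. The sums follow their most abundant genes, such as PYK10, and single markers moved more. Among root markers the root-hair expansin genes EXPA7 (1.23 and 1.73 with OsTOP6A3 and OsTOP6B, limma adjusted p = 0.00357 and 0.00077) and, with OsTOP6B, EXPA18 (0.81, adjusted p = 0.0141) rose. The EXPA18 call ended without wild-type replicate 1 (0.0825). Among shoot markers LHCB4.2 rose (0.72 and 0.79, adjusted p = 0.0344 and 0.0193) and PSAN fell (-0.71 and -0.83, adjusted p = 0.0327 and 0.0141). With OsTOP6A3 these shoot calls ended without any single array of that comparison (0.104 to 0.183 for LHCB4.2 and 0.117 to 0.179 for PSAN). With OsTOP6B they ended without either wild-type array (0.0923 and 0.0683 for LHCB4.2, 0.0713 and 0.0677 for PSAN), and for LHCB4.2 also without OsTOP6B replicate 2 (0.0508). On the deposited scale PSAN passed in neither line (0.394 and 0.106). Its values there were -0.35 and -0.69, or -0.69 and -0.87 relative to the median change. None of the markers read 0 on any array, and their part in the results below was not tested. In RNA of whole seedlings, fewer cells of a type and less RNA per cell cannot be told apart.

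GRX480 was lower with OsTOP6A3 and was the 1 of 4 tested defence markers that passed the test in that comparison, beside 9.68% of all tested probe sets. As deposited, its intensity read 44.8 and 34.2 in wild type, 18.1 and 17.9 with OsTOP6A3, and 20.2 and 26.2 with OsTOP6B. All 4 overexpressor arrays read below both wild-type arrays, although 3 of these 4 had higher medians over all probe sets than wild type. After normalization the log2 level was 6.10 and 5.80 in wild type, 5.00 and 5.02 with OsTOP6A3, and 5.03 and 5.59 with OsTOP6B. All 4 overexpressor arrays again lay below wild type, as did those of 22.6% of all tested probe sets on this normalized scale. The order of the group means was wild type, OsTOP6B, OsTOP6A3 from high to low, and OsTOP6B replicate 1 read close to the OsTOP6A3 arrays whereas OsTOP6B replicate 2 lay nearer to wild type.

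The log2 change of GRX480 with OsTOP6A3 was -0.94 ± 0.20 (SE, n = 2 arrays per group), or 1.92-fold lower, with a 95% interval of -1.41 to -0.48 and a limma adjusted p of 0.0273. With OsTOP6B it was -0.65 ± 0.20, or 1.56-fold lower, with an interval of -1.11 to -0.18, and did not pass (limma adjusted p = 0.0688). The overexpressors differed from each other by -0.29, with an interval of -0.76 to 0.17 (limma adjusted p = 0.763), so the data do not show that OsTOP6A3 lowered GRX480 more than OsTOP6B. For the mean of both overexpressors the change was -0.79 ± 0.17 and passed (limma adjusted p = 0.0204). Both comparisons with wild type rest on the same wild-type arrays.

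The OsTOP6A3 call of GRX480 ended when any array of that comparison was left out, while the value stayed between -1.10 and -0.81. Such a fit leaves 1 array in a group, which weakens the test for every probe set. The lost call therefore does not single out GRX480. With all arrays the call was lost on the deposited scale (limma adjusted p = 0.0777), without the filter on low values (0.0684) and with a pseudocount of 1 (0.0566). The OsTOP6B value became a call without OsTOP6B replicate 2, at -0.95 (adjusted p = 0.0284), and shrank to -0.36 without OsTOP6B replicate 1. The call for the mean of both overexpressors was lost without wild-type replicate 1, at -0.66 (adjusted p = 0.143), and without OsTOP6A3 replicate 1, at -0.78 (0.0542). GRX480 stood at the 32.2 percentile of mean level. Its normalized log2 levels were 5.00 and 5.02 with OsTOP6A3 and 5.03 on OsTOP6B replicate 1. These lay just above 4.97, the mean level a probe set had to reach to be tested. The 1.92-fold fall with OsTOP6A3 is of intensity with the pseudocount added. The size of the log2 change therefore moved with the pseudocount, from -0.46 with 64 to -1.44 with 1 for OsTOP6A3. How far GRX480 fell is thus uncertain at levels this low. The sign of its change was negative in both lines under all alternatives that tested it.

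**Figure D1:**
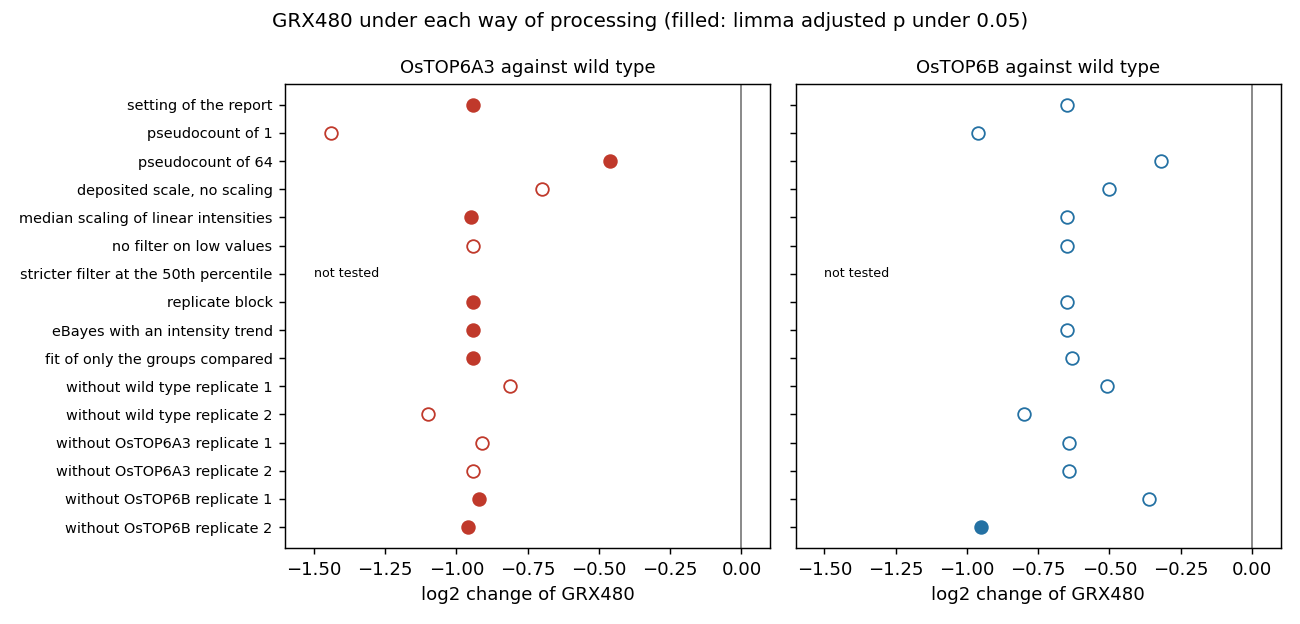
Log2 change of GRX480 against wild type (horizontal axis) under each way of processing (rows), for OsTOP6A3 (left) and OsTOP6B (right), with filled points where the limma adjusted p is under 0.05. All points lie below 0, between -1.44 and -0.46 for OsTOP6A3 and between -0.96 and -0.32 for OsTOP6B, and calls come and go with single arrays.

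SAG101, the other gene placed in the salicylate group, stayed within a narrow range after normalization. As deposited, its intensity read 37.7 and 41.7 in wild type, 52.3 and 60.4 with OsTOP6A3, and 83.4 and 42.9 with OsTOP6B. Every overexpressor array read above both wild-type arrays on that scale, where most overexpressor arrays also had higher medians over all probe sets. Normalized log2 levels were 5.91 and 6.00 in wild type, 5.92 and 6.14 with OsTOP6A3, and 6.35 and 6.11 with OsTOP6B. After normalization OsTOP6A3 arrays overlapped wild type, and both OsTOP6B arrays lay just above it.

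The log2 change of SAG101 was 0.08 ± 0.15 with OsTOP6A3 (95% interval -0.26 to 0.41, limma adjusted p = 0.779). It was 0.27 ± 0.15 with OsTOP6B (interval -0.06 to 0.61, adjusted p = 0.242). Neither passed, and these intervals hold no change as large as the -0.94 of GRX480 in either direction. The small OsTOP6A3 value turned to -0.03 without OsTOP6A3 replicate 2, and the OsTOP6B value was 0.15 without OsTOP6B replicate 1 and 0.40 without OsTOP6B replicate 2. GRX480 and SAG101, placed together as salicylate genes, had point values of different sign in both lines. Both SAG101 intervals hold values of either sign, so its direction was not established.

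**Figure D2:**
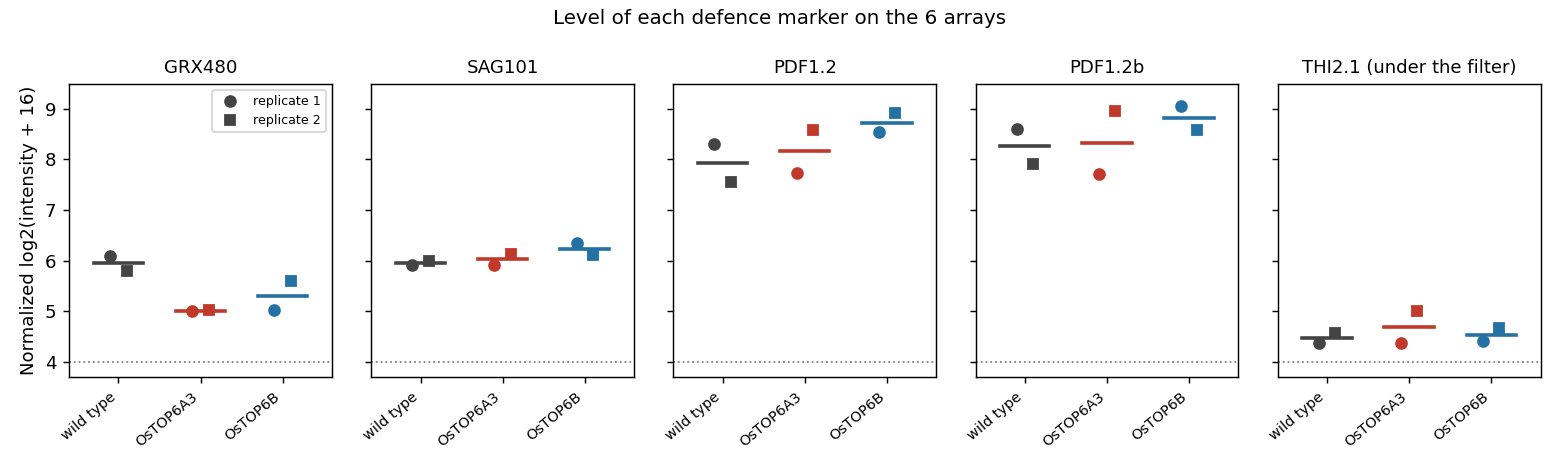
Normalized log2(intensity + 16) of the 5 markers (vertical axis) on each array by group (horizontal axis), with circles for replicate 1, squares for replicate 2, bars for group means and a dotted line at 4, where an intensity of 0 falls. GRX480 is lower on all 4 overexpressor arrays, PDF1.2 and PDF1.2b spread widely within groups, and THI2.1 stays near the dotted line.

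PDF1.2 read higher on both OsTOP6B arrays than on both wild-type arrays, but replicates lay as far apart as the groups. As deposited, its intensity read 255.1 and 148.7 in wild type, 231.1 and 413.5 with OsTOP6A3, and 436.2 and 400.2 with OsTOP6B. Normalized log2 levels were 8.30 and 7.55 in wild type, 7.74 and 8.58 with OsTOP6A3, and 8.54 and 8.92 with OsTOP6B. The wild-type arrays lay 0.75 apart and the OsTOP6A3 arrays 0.84 apart, one on each side of wild-type replicate 1. The OsTOP6B arrays lay above both wild-type arrays, though OsTOP6A3 replicate 2 reached the same height.

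The log2 change of PDF1.2 with OsTOP6B was 0.80 ± 0.33, or 1.74-fold higher, with a 95% interval of 0.05 to 1.56 (unadjusted p = 0.0405, limma adjusted p = 0.140). It did not pass after adjustment. Against wild-type replicate 1 alone the value was 0.43, against wild-type replicate 2 alone it was 1.18, and neither passed. On the deposited scale, where the median of all changes lay at 0.18, the value was 1.04 and passed (limma adjusted p = 0.00737), so that call rests on the scaling. With OsTOP6A3 the change was 0.24 ± 0.33 (interval -0.52 to 1.0, adjusted p = 0.690). That value turned to -0.14 without wild-type replicate 2 and to -0.18 without OsTOP6A3 replicate 2. The lines differed by -0.57, with an interval of -1.32 to 0.19 (adjusted p = 0.727).

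PDF1.2b is a close paralog of PDF1.2, and its probe set carries the suffix _x_at, which Affymetrix gave to sets with probes that also match other transcripts. Only 126 of the 22746 probe sets (0.554%) carry it. The PDF1.2b value may therefore include signal from PDF1.2 or other paralogs, and the probe set is not an independent reading. As deposited, its intensity read 315.2 and 197.9 in wild type, 224.9 and 534.4 with OsTOP6A3, and 623.4 and 311.0 with OsTOP6B. Normalized log2 levels were 8.60 and 7.92 in wild type, 7.71 and 8.95 with OsTOP6A3, and 9.05 and 8.58 with OsTOP6B. As for PDF1.2, wild-type replicate 1 read above replicate 2 and OsTOP6A3 replicate 2 above replicate 1. The OsTOP6B arrays ran in the same order in these probe sets as deposited, with replicate 1 higher, and in opposite order after normalization.

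The log2 change of PDF1.2b was 0.07 ± 0.40 with OsTOP6A3 (95% interval -0.86 to 1.0, limma adjusted p = 0.933). With OsTOP6B it was 0.55 ± 0.40 (interval -0.38 to 1.48, adjusted p = 0.386). Neither passed, and the interval with OsTOP6B holds a 2-fold rise. The OsTOP6B value was 0.22 without wild-type replicate 2, 0.32 without OsTOP6B replicate 1 and 0.89 without wild-type replicate 1. The OsTOP6A3 value turned to -0.27 without wild-type replicate 2 and to -0.56 without OsTOP6A3 replicate 2. The lines differed by -0.49, which became 0.14 without OsTOP6A3 replicate 1.

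**Figure D3:**
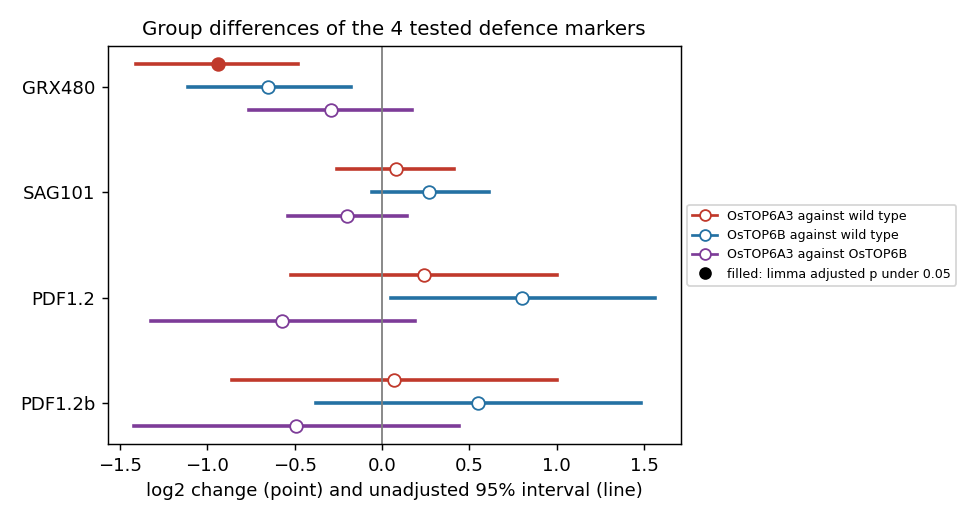
Log2 change (points, horizontal axis) with unadjusted 95% interval (lines) of the 4 tested markers (rows) for OsTOP6A3 against wild type, OsTOP6B against wild type and OsTOP6A3 against OsTOP6B, filled where the limma adjusted p is under 0.05. The 1 filled point is GRX480 with OsTOP6A3, and the defensin intervals are the widest.

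The defensin genes were among the probe sets with the widest replicate spread on the array. The residual SD between replicate arrays was 0.48 for PDF1.2 and 0.61 for PDF1.2b, against a median of 0.15 over the 17059 tested probe sets. Only 0.920% of tested probe sets had a larger residual SD than PDF1.2, and 0.170% a larger one than PDF1.2b. GRX480 had 0.26, exceeded by 14.4% of probe sets, and SAG101 had 0.14, exceeded by 53.6%. For the defensins the OsTOP6A3 arrays were the farthest apart, 0.84 for PDF1.2 and 1.25 for PDF1.2b, and for GRX480 they were 0.02 apart.

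**Figure D4:**
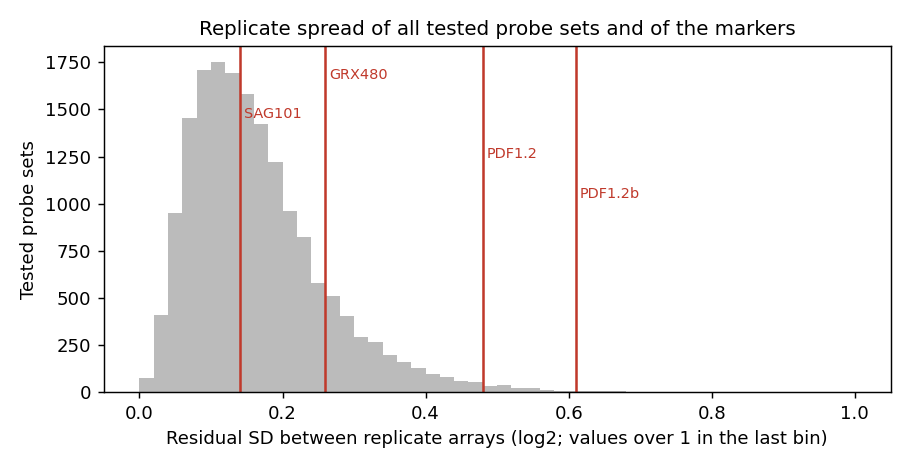
Number of tested probe sets (vertical axis) by residual SD between replicate arrays in log2 units (horizontal axis), with red lines for the tested markers. SAG101 lies near the centre at 0.14, GRX480 at 0.26, and PDF1.2 and PDF1.2b in the upper tail at 0.48 and 0.61.

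THI2.1 lay under the filter and was not tested. As deposited, its intensity read 4.5 and 6.6 in wild type, 5.2 and 17.4 with OsTOP6A3, and 6.2 and 8.0 with OsTOP6B. Normalized log2 levels ran from 4.37 to 4.66 except on OsTOP6A3 replicate 2, at 5.00, close to the value of 4 that an intensity of 0 takes. The group differences of 0.22 with OsTOP6A3 and 0.07 with OsTOP6B carry no test, and the former was -0.10 without OsTOP6A3 replicate 2. Whether THI2.1 changed cannot be read from values this low.

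Of the 5 markers, 4 were tested. With OsTOP6A3 1 of them fell and 0 rose, beside 4.17% of all tested probe sets called lower and 9.68% called in either direction. The arrays of these groups did not overlap for 1 of 4 markers, beside 61% of probe sets. With OsTOP6B limma called 0 of 4, beside 14.9% of probe sets, and 2 of them, GRX480 and PDF1.2, had an unadjusted p under 0.05, as did 5353 of 17059 probe sets. The arrays did not overlap for 3 of 4 markers, GRX480 lower and SAG101 and PDF1.2 higher, beside 57.3% of probe sets. Between the lines limma called 0 of 4, none with an unadjusted p under 0.05, beside 0% of probe sets called and 1235 with an unadjusted p under 0.05. For the mean of both overexpressors limma called 1 of 4, beside 17.1% of probe sets. The median log2 change of the 4 tested markers was 0.072 with OsTOP6A3 and 0.41 with OsTOP6B, against -0.018 and -0.021 over all tested probe sets. These medians count both PDF1.2 and PDF1.2b, whose probe sets may share signal, and no marker passed with OsTOP6B. With so few members these shares cannot be set apart from those of the array.

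Few other genes of these pathways had a probe set of exactly 1 gene. Probe sets with several genes or no gene named were not searched for the rest. The salicylate list of 33 genes, from EDS1, NPR1 and the TGA factors to the PR genes, had 4 genes with a probe set of exactly 1 gene and 3 tested. Of these 1 fell with OsTOP6A3, which was GRX480, and 0 passed with OsTOP6B in limma. Over the array 9.68% and 14.9% of tested probe sets were called in these comparisons. With OsTOP6B GRX480 alone of the list had an unadjusted p under 0.05. WRKY53, a transcription factor gene of defence and leaf senescence, had log2 changes of -0.26 ± 0.17 and 0.03 ± 0.17 (adjusted p = 0.387 and 0.922). The median change of the 3 tested genes, which include the markers GRX480 and SAG101, was -0.26 with OsTOP6A3 and 0.03 with OsTOP6B.

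The jasmonate list of 41 genes had 6 with a probe set of exactly 1 gene and 4 tested. Limma called 0 of these in either line, beside 9.68% of all tested probe sets with OsTOP6A3 and 14.9% with OsTOP6B. Of the tested jasmonate genes PDF1.2 alone had an unadjusted p under 0.05, with OsTOP6B. MYC3 and MYC4 encode transcription factors that JAZ proteins repress and that act beside MYC2 in jasmonate responses. The log2 values of MYC3 were 0.07 ± 0.12 with OsTOP6A3 and 0.01 ± 0.12 with OsTOP6B, neither passing (adjusted p = 0.771 and 0.954). MYC4 had 0.28 ± 0.16 and 0.24 ± 0.16 (adjusted p = 0.327 and 0.347). The median change of the 4 tested genes, which include the markers PDF1.2 and PDF1.2b, was 0.16 and 0.40. In the senescence list of 8 genes 2 were tested and limma called 0 in either line, beside the same shares of the array. With so few tested genes the counts of these lists cannot be set apart from those shares. SAG29, which encodes the sugar transporter SWEET15, had 0.61 ± 0.34 with OsTOP6A3 and 1.01 ± 0.34 with OsTOP6B (adjusted p = 0.307 and 0.0874, unadjusted p = 0.114 and 0.0192).

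Among the relatives of the defensin and thionin markers, PDF2.5 rose and PDF1.4 fell in both lines. Of 12 listed family genes 8 were tested: 1 rose and 2 fell with OsTOP6A3, and 1 rose and 1 fell with OsTOP6B, all of them genes other than PDF1.2, PDF1.2b and THI2.1. Over the array 9.68% of tested probe sets were called with OsTOP6A3 and 14.9% with OsTOP6B. PDF2.5, a defensin gene, read 122.0 and 113.7 in wild type, 350.1 and 327.9 with OsTOP6A3, and 410.8 and 245.4 with OsTOP6B as deposited. After normalization 61% and 57.3% of tested probe sets did not overlap wild type with OsTOP6A3 and OsTOP6B, in either direction. For PDF2.5 every overexpressor array lay above both wild-type arrays on the deposited and the normalized scale. Its log2 change was 1.04 ± 0.13 with OsTOP6A3 and 1.1 ± 0.13 with OsTOP6B (limma adjusted p = 0.00326 and 0.00227), and it was called in each line under all 15 alternatives.

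PDF1.4, a defensin gene of the same subfamily as PDF1.2, went the other way. As deposited, its intensity read 246.5 and 242.3 in wild type, 132.4 and 199.6 with OsTOP6A3, and 150.0 and 133.9 with OsTOP6B. After normalization 22.6% of all tested probe sets lay lower on every overexpressor array than in wild type. For PDF1.4 all overexpressor arrays lay below wild type on the deposited and the normalized scale. Its log2 change was -0.92 ± 0.21 with OsTOP6A3 and -0.95 ± 0.21 with OsTOP6B (limma adjusted p = 0.0368 and 0.0258). On the deposited scale both calls were lost, at -0.54 and -0.72 (adjusted p = 0.191 and 0.0884), or -0.88 and -0.90 relative to the median change. The calls were lost as well without the filter (0.0869 and 0.0637) and with a pseudocount of 1 (0.0826 and 0.0612). They also ended without wild-type replicate 1 (0.152 and 0.109) and without replicate 2 of wild type (0.114 and 0.0883). The OsTOP6A3 call was lost without OsTOP6A3 replicate 1, at -0.63 (0.196), and the OsTOP6B call without OsTOP6B replicate 1, at -0.76 (0.0968).

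THI2.2, a further thionin gene, read 51.9 and 57.8 in wild type, 44.0 and 34.5 with OsTOP6A3, and 54.3 and 33.5 with OsTOP6B as deposited. Its normalized level fell with OsTOP6A3, at -0.66 ± 0.13 on the log2 scale (limma adjusted p = 0.0196), and its value of -0.46 ± 0.13 with OsTOP6B did not pass (0.0533). On the deposited scale the OsTOP6A3 value was -0.36, or -0.70 relative to the median change, and did not pass (0.376). The call ended when either wild-type array was left out (0.0748 and 0.100) and when either OsTOP6A3 array was (0.0743 and 0.146). LCR69 and LCR68, also named PDF2.2 and PDF2.3, did not pass: LCR69 had 0.19 and 0.09, and LCR68 had 0.33 and -0.11. The median change of the 8 tested genes was 0.13 with OsTOP6A3 and -0.01 with OsTOP6B.

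GRX480 was the 1 glutaredoxin gene called lower. Of 14 listed glutaredoxin genes 8 were tested; with OsTOP6A3 1 fell and 0 rose, and with OsTOP6B 0 fell and 1 rose, beside 9.68% and 14.9% of all tested probe sets called in these comparisons. The gene that rose was GRXC2, of the dithiol CPYC type, which read 1596.5 and 1984.7 in wild type, 3379.5 and 3794.2 with OsTOP6A3, and 3846.2 and 2445.7 with OsTOP6B as deposited. After normalization 61% and 57.3% of tested probe sets did not overlap wild type with OsTOP6A3 and OsTOP6B, in either direction. For GRXC2 all overexpressor arrays lay above wild type on the deposited and the normalized scale. Its log2 change was 0.64 ± 0.15 with OsTOP6B (limma adjusted p = 0.0297) and 0.58 ± 0.15 with OsTOP6A3, which did not pass (0.0507).

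The calls of GRXC2 lay close to the threshold. With OsTOP6A3 it passed under 7 of 15 alternatives, and its adjusted p ran from 0.00743 to 0.252. With OsTOP6B its call ended when either wild-type array (0.153 and 0.0548), either OsTOP6B array (0.0865 and 0.0509) or OsTOP6A3 replicate 2 (0.0504) was left out, and with a pseudocount of 1 (0.0583), on the deposited scale (0.0600) and without the filter (0.0626). ROXY1 and ROXY2, CC-type genes like GRX480 and known from petal and anther development, were named in addition to the rule, after their values were seen. ROXY1 had 0.09 ± 0.25 and 0.00 ± 0.25, and ROXY2 had -0.19 ± 0.26 and -0.34 ± 0.26 (adjusted p from 0.421 to 0.999). Of the remaining genes GRXC1 had -0.29 and -0.16, AT5G20500 0.23 and 0.29, AT2G20270 -0.21 and -0.24, and AT1G77370 -0.04 and 0.18, none passing. The median change of the 8 tested genes was -0.12 with OsTOP6A3 and -0.08 with OsTOP6B.

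**Figure D5:**
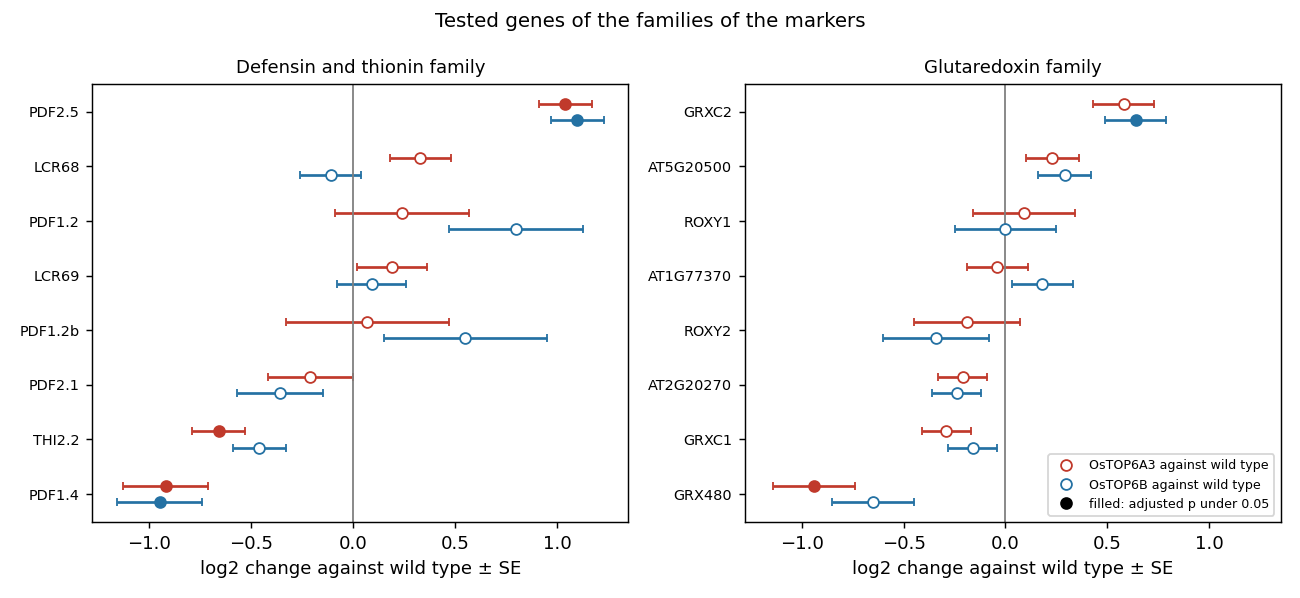
Log2 change against wild type with SE (horizontal axis) of the tested defensin and thionin genes (left) and glutaredoxin genes (right), in red for OsTOP6A3 and blue for OsTOP6B, filled where the limma adjusted p is under 0.05. PDF2.5 stands above 1 and PDF1.4 near -0.9 in both lines, and GRX480 and GRXC2 lie at opposite ends of their family.

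Patterns over the arrays were compared between each tested marker and 9434 other tested probe sets with exactly 1 gene, by Pearson's r over 6 arrays, as a description; the arrays fall into 3 groups, which every such r shares. The profiles most like that of GRX480 were those of AT2G01090 (r = 0.999), AT5G57610 (0.994) and AT3G02890 (0.990), and 98 probe sets reached 0.95. Of these named genes AT5G57610 was called with OsTOP6A3, at -0.64 (limma adjusted p = 0.0399). For SAG101 they were UGT73D1, a glycosyltransferase gene, at 0.973, AT4G23510 at 0.967 and INH3, a protein phosphatase inhibitor gene, at 0.963. For PDF1.2 they were AT1G31840 (0.982), AT1G49370 (0.975) and AT5G56920 (0.973), with 13 probe sets at or above 0.95. For PDF1.2b they were AT3G52480 (0.985), AT1G76360 (0.964) and AT1G20310 (0.957), with 8 probe sets. Neither defensin marker was among the 3 nearest profiles of the other.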

How the data were processed

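The authors deposited 1 intensity per probe set for each of 6 biotin-labelled, 1-colour Affymetrix arrays, per the labels. The sources used here do not say how the probes of a set were summarised or scaled. Of all probe sets, the 64 controls were set aside, leaving 22746. A pseudocount of 16 was added to the deposited intensities and log2 was taken. Column quartiles lay up to 0.54 apart in log2, above the limit of 0.1 for leaving them unscaled, so the columns were quantile normalized. Probe sets whose mean lay at or above the 25th percentile were tested, 17059 in all.

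One model with a mean for each group was fitted over all 6 arrays in limma 3.58.1 (lmFit, then eBayes; R 4.3.3). It had 3 residual and 4.61 prior degrees of freedom. P-values are two-sided and were Benjamini-Hochberg adjusted over all tested probe sets. A probe set was called at an adjusted p under 0.05. The fit was tested on simulated data. Figures were drawn with matplotlib 3.10.9.

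Probe sets were named where the array's probe table gave exactly 1 gene, and loci came from the RefSeq gene table of TAIR10.1, used for names only. The members and the gene lists were chosen with earlier results of these data known. All members are named. From each of the 5 lists of defence and related genes every gene called against wild type is named, with up to 4 further measured genes in order of mean level. Shoot and root marker genes called against wild type are named as well, after their values were seen. For each tested member the 3 single-gene probe sets with the highest Pearson correlation over the arrays are named. Alternatives were pseudocounts of 1 and 64, the deposited scale, median scaling, no filter, a filter at the 50th percentile, a replicate block, an intensity trend in eBayes, a fit of only the groups compared, and leaving out each array. A fit without 1 array leaves 1 array in that group, which weakens the test for every probe set. A call lost in this way does not show that the gene depends on that array. The number of arrays limits the precision of every value.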

Additional observations from a re-analysis of the deposited data

How the results depend on the processing

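GRX480 lost its OsTOP6A3 call with a pseudocount of 1 (-1.44), on the deposited scale (-0.70, or -1.04 relative to the median change of 0.34) and without the filter (-0.94, more probe sets tested), and ranged from -1.10 to -0.81 when single arrays were left out. With OsTOP6B the range over arrays left out was -0.95 to -0.36, and between the lines -0.56 to -0.02. For the mean of both lines it lost the call on the deposited scale (-0.60) and without the filter (-0.79), with -0.95 to -0.64 over arrays left out. A filter at the 50th percentile removed GRX480 and SAG101, so the number of markers called fell from 1 to 0. The deposited scale gave 1 marker called with OsTOP6B, PDF1.2, and also called PDF1.2 for the mean of both lines (0.83). Over arrays left out the count of markers called ran from 0 to 1 in each comparison with wild type. In the same order SAG101 with OsTOP6A3 ran from -0.03 to 0.18, PDF1.2 from -0.18 to 0.66, and PDF1.2b from -0.56 to 0.69, from -0.03 to 0.65 for the mean of both lines and from -1.11 to 0.14 between lines. Causes were not tested.

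Probe sets called for OsTOP6A3 numbered 1652, against 1100 with a pseudocount of 1, 1002 without the filter and 560 to 2017 over arrays left out. For OsTOP6B they numbered 2540, against 1460 on the deposited scale, 1608 without the filter and 1054 to 2210 over arrays left out. Calls for OsTOP6A3 and OsTOP6B were more numerous with a pseudocount of 64, at 2308 and 3400, and with an intensity trend, at 2258 and 3341. On the deposited scale 92.1% and 84.5% of calls were rises, against 57.0% and 53.1%. For the mean of both lines 2924 became 1149 to 3048. Between lines 0 became 1 with a pseudocount of 64 or an intensity trend and 5 on the deposited scale. Same-numbered arrays showed no shared deviation over the tested probe sets, with correlations of 0, -0.05 and 0.02. Whether same-numbered samples were grown or processed together is not stated. With the replicate number as a block GRX480 stayed at -0.94 with OsTOP6A3 (adjusted p = 0.0379) and -0.65 with OsTOP6B (0.0871), and no call of a marker changed.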

Other observations

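Further defence genes lay under the filter and have no test. LCR67, also named PDF1.1, had deposited intensities between 0.8 and 1.5 on all 6 arrays. BSMT1, which encodes a methyltransferase acting on salicylate and benzoate, had 0.7 to 2.6. JMT, which encodes the jasmonate methyltransferase, had 0.8 and 0.5 in wild type, 14.1 and 2.1 with OsTOP6A3, and 1.8 and 1.6 with OsTOP6B, so 1 array held its highest value. For THI2.1 the highest value was on the other OsTOP6A3 array.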
